A study of Canis lupus familiaris with 6 samples.

Results

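The genes described here build and serve the primary cilium: the intraflagellar transport (IFT) complexes, the dynein that drives return transport, the BBSome and its helpers, and the transition zone at the base of the cilium. They are 44 genes chosen by name for these roles, of 15115 genes that the array annotation names singly. A probe set, a group of short array probes read together as 1 value, belonged to a member when its single annotated symbol was that member. This gave 83 of 42924 probe sets, for 40 of the 44 members. BBS10, BBS12, TMEM216 and TCTN1 were not analysed here.

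All arrays hold RNA from MDCKII, a strain of the Madin-Darby canine kidney epithelial line, collected 36 h after plating. The 3D group (3 arrays) was plated on 100 µl of Matrigel, a basement membrane extract, in a 60 mm dish under medium with 2% Matrigel, where the cells form cysts. The 2D group (3 arrays) was grown without Matrigel as a polarized monolayer on plastic. No transgene, mutation or drug is named for either group, the replicates are labelled biological, and all come from a single cell line. The comparison asks which transcripts differ between the 3D and 2D cultures. The arrays do not measure a lumen, and contact with Matrigel and cyst formation cannot be told apart.

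The primary cilium is a single microtubule-based projection on the apical surface of kidney epithelial cells, where it senses flow and signals. IFT-B complexes, moved by kinesin-2, carry cargo to its tip. IFT-A complexes and dynein-2 bring cargo back, the BBSome carries membrane proteins out, and the transition zone gates what enters. The cilium is taken apart before a cell divides. Inherited defects in these genes cause cystic kidney disease, among other disorders.

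The values are log2 signals, so that a difference of 1 is a factor of 2. The replicate 1 arrays lie on another scale, with medians of 5.26 in 3D and 5.42 in 2D, against 7.06 to 7.08 on the other 4 arrays. The tests were therefore made on the 4 arrays of replicates 2 and 3 (n = 2 per culture), and the replicate 1 pair is given only as an untested difference. An array reports the RNA of all cells together, so more cells with a transcript and more transcript per cell cannot be told apart. Of 8 measured kidney epithelial markers, all 8 lay above the array median and 5 above the upper quartile on all 4 arrays, among them EPCAM and KRT8, and 0 passed the test. None of 8 fibroblast, 6 endothelial or 5 leukocyte markers lay above the upper quartile on all 4 arrays. On all 4 arrays 1 of them, endothelial CDH5, lay above the median. None of the 3 lists had a gene that passed, and at an unadjusted p under 0.05 there was 1, leukocyte CD3E at 0.34. 3D replicate 2 stood apart in its poly-A spike-in controls, RNAs added to each sample, with a mean of 9.83 against 8.98 in 3D replicate 3 and 8.81 and 8.87 in 2D replicates 2 and 3. Both of these 3D means lay above both 2D means. In replicate 1 the spike-in mean was also higher in 3D, at 8.49 against 7.66 in 2D. The 3′ minus 5′ difference of the GAPDH control, a sign of RNA integrity, was 0.31 and 0.40 in 3D replicates 2 and 3 and 0.20 and 0.16 in 2D replicates 2 and 3. That of actin was 1.80 and 1.79 in 3D and 1.90 and 2.07 in 2D on the same arrays. Taken against another 5′ probe set of actin, it was 0.57 and 0.76 in 3D and 0.71 and 0.89 in 2D. In replicate 1 all of these were larger, for GAPDH 1.47 in 3D and 1.67 in 2D, and for actin 2.85 in 3D and 2.22 in 2D. Against the other 5′ probe set, actin gave 2.9 in 3D and 2.17 in 2D. Their part in the results was not tested.

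Several genes for ciliary transport and 2 for the transition zone rose in 3D, judged on 1 probe set per gene, the one with the highest mean over the 4 arrays. Of 40 measured members 9 rose, 0 fell and 31 did not pass at a limma adjusted p under 0.05. The 9 were IFT140, IFT172, IFT52, BBS2, BBS4, BBS9, TCTN2, RPGRIP1L and ARL3, with rises of 1.40-fold to 2.61-fold. They are 22.5% of the members, against 4.17% of all named genes that rose and 3.12% that fell. At an unadjusted p under 0.05, 22 members were higher and 0 lower, against 12.5% and 12.6% of all named genes. Over all 83 member probe sets, 41 were higher and 5 lower at that p, the 5 being of AHI1, CEP290, IFT20 and CEP164. Among all 42924 probe sets 10072 were under it, both directions together. With probe sets averaged per gene, 19 members were higher and 2 lower, and 3787 of 15115 genes were under that p. Both 3D arrays lay above both 2D arrays for 22 members and below for 4, against 25.8% and 27.5% of all named genes. The difference was above 0 for 27 members (67.5%, against 47.4% of all named genes). The median difference over the members was 0.35, against -0.01 over all named genes. By single probe sets, 11 of 83 rose (13.3%, against 3.65% of all probe sets) and 2 fell (2.41%, against 2.96%). Leaving out any 1 of the 4 arrays (replicate 2 or 3 of 3D, or replicate 2 or 3 of 2D) leaves 1 array in a culture, assumed to vary like the other culture, and 0 of all 42924 probe sets passed in any of these 4 fits. Each of the 9 members kept its sign in these fits. That was fixed beforehand, because both 3D arrays lay above both 2D arrays for all 9. The lost calls are not particular to these 9 members.

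**Figure D1:**
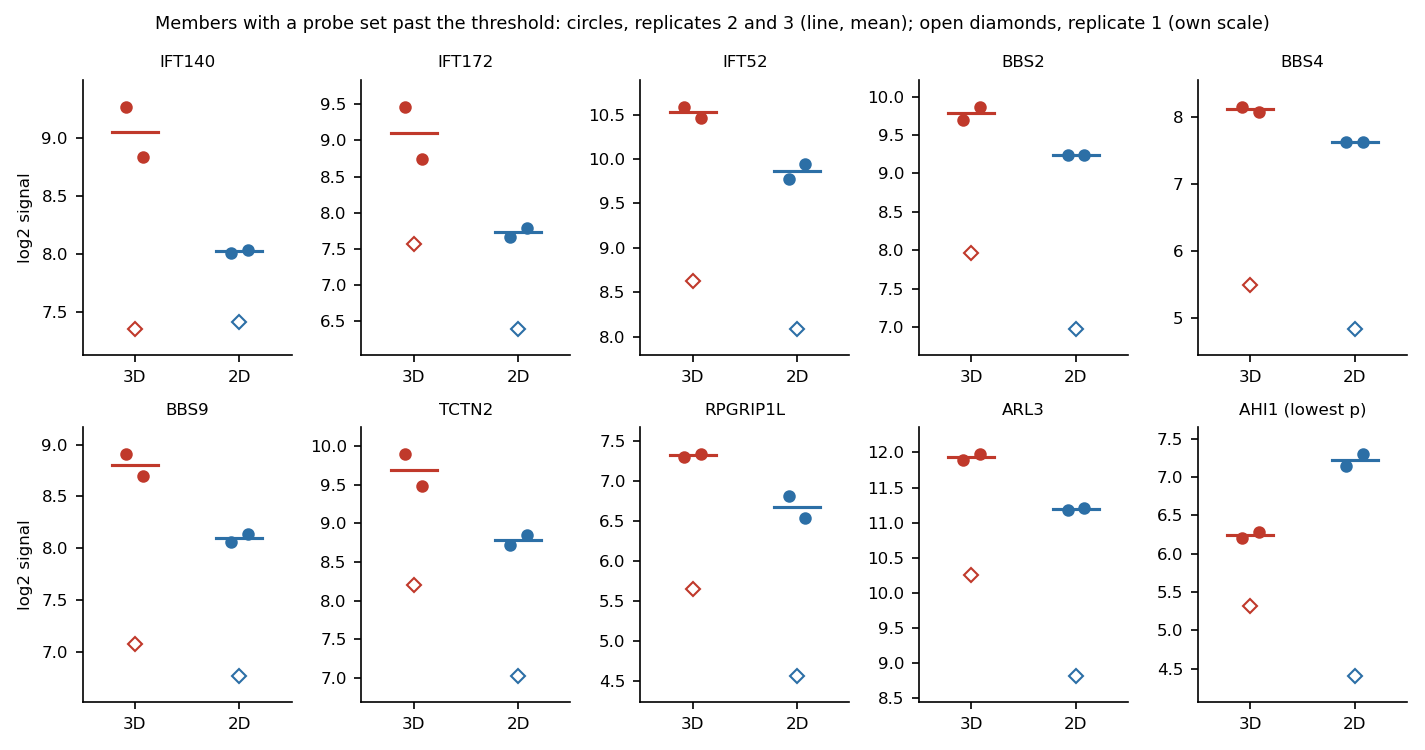
Log2 signal on each array (vertical axis, own range per panel) for the 9 members that rose and for the AHI1 probe set with the lowest adjusted p; circles are replicates 2 and 3 with their mean as a line, open diamonds replicate 1 on its own scale. Both 3D circles lie above both 2D circles in the 9 panels of members that rose, and below them for AHI1, whose replicate 1 pair runs the other way.

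IFT-B is the complex that links kinesin-2 to cargo on the way to the tip. IFT172, its largest subunit, lay at 9.47 and 8.75 in 3D replicates 2 and 3 and at 7.66 and 7.79 in 2D. Both 3D arrays were above both 2D arrays, although the 3D arrays lay 0.72 apart. The difference was 1.39 (SE 0.231, limma adjusted p = 0.0281), with 1.03 when 3D replicate 2 was left out and 1.75 when 3D replicate 3 was. All 3 IFT172 probe sets rose, the others by 0.995 and 0.70, and replicate 1 gave 7.56 in 3D and 6.39 in 2D, a difference of 1.17. IFT52, a core subunit that holds the complex together, stood at 10.59 and 10.46 in 3D and 9.78 and 9.94 in 2D. Its groups did not overlap, and it rose by 0.67 (SE 0.113, limma adjusted p = 0.0295). Its other probe sets were at 0.50 and 0.46 and did not pass.

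The other 9 IFT-B members did not pass. The 95% interval lay above 0 for IFT27 at 0.61, IFT80 at 0.53, IFT22 at 0.52, IFT88 at 0.41 and IFT46 at 0.32. IFT22 and IFT27 encode small GTPase-like subunits, and IFT88 is the subunit whose hypomorphic mutation in mice gives polycystic kidneys. IFT88 lay at 8.05 and 8.11 in 3D and 7.67 and 7.68 in 2D, a tight spread, with a limma adjusted p = 0.0680. IFT74 (0.20, interval -0.61 to 1.01), IFT81 (0.17) and IFT57 (0.02) had intervals that span 0. IFT74 and IFT81 encode partners that together bind tubulin. IFT20, the subunit also found at the Golgi, was at -0.26 (interval -0.54 to 0.03). Another IFT20 probe set was at -0.34 (interval -0.58 to -0.09) without passing, and a further one at 0.06. In replicate 1 all 11 measured IFT-B members had a higher value in 3D, by 0.21 for IFT20 to 1.96 for IFT88, with a median of 1.18.

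IFT-A returns cargo from the tip together with dynein-2. IFT140, an IFT-A core subunit, had 9.27 and 8.84 in 3D and 8.01 and 8.04 in 2D. The groups were well apart, with a difference of 1.03 (SE 0.157, limma adjusted p = 0.0224), a 2.04-fold rise. Replicate 1 did not share it, with 7.36 in 3D and 7.42 in 2D. The other IFT140 probe sets were at 0.72 and 0.67 without passing, and at -0.44 and -0.12 in replicate 1. IFT43, a small IFT-A subunit, had 9.44 and 9.40 in 3D and 9.06 and 9.23 in 2D, a difference of 0.28 (limma adjusted p = 0.199). IFT122 did not pass at -0.15, and its second probe set was at 0.29.

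Neither dynein-2 member passed. DYNC2LI1, its light intermediate chain, had 10.19 and 10.31 in 3D and 9.74 and 9.83 in 2D. The groups were apart, at 0.47 (SE 0.106, limma adjusted p = 0.0585), and 3 of its 4 probe sets gave 0.47 to 0.52, while the fourth gave -0.06. DYNC2H1, the heavy chain that holds the motor, had 9.18 and 8.79 in 3D and 8.52 and 8.69 in 2D, a difference of 0.38 (limma adjusted p = 0.213) that lay at 0.19 without 3D replicate 2 and at 0.58 without 3D replicate 3.

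The BBSome is a protein coat that ferries receptors out of the cilium, named for Bardet-Biedl syndrome. Of 7 measured subunit genes 3 rose (42.9%, against 4.17% of all named genes) and 4 did not pass. BBS9 lay at 8.91 and 8.70 in 3D and 8.06 and 8.14 in 2D, a rise of 0.71 (SE 0.116, limma adjusted p = 0.0271). Its second probe set gave 0.72 and did not pass. BBS2 had 9.70 and 9.87 in 3D and 9.24 on both 2D arrays, a rise of 0.55 (limma adjusted p = 0.0424). BBS4, which links the coat to centriolar satellites, had 8.16 and 8.08 in 3D and 7.63 on both 2D arrays, a rise of 0.49 (limma adjusted p = 0.0440). The groups of these 3 genes did not overlap. The calls of BBS2 and BBS4 did not hold under trend and robust variance priors, with an adjusted p = 0.0608 and an adjusted p = 0.0534, and that of BBS2 did not hold for the mean of its 3 probe sets (adjusted p = 0.0722). TTC8 was at 0.41 (interval 0.11 to 0.70), BBS1 at -0.07 and BBS7 at -0.15. BBS5, a subunit that binds phosphoinositides, had 8.04 and 8.68 in 3D and 8.62 and 8.89 in 2D. These values overlap, and the difference of -0.40 had an interval of -0.94 to 0.15. It was -0.08 without 3D replicate 2 and -0.72 without 3D replicate 3. ARL6, the GTPase that recruits the BBSome to membranes, had 9.04 and 9.29 in 3D and 9.27 and 9.38 in 2D, at -0.16 (limma adjusted p = 0.516) with 1.43 in replicate 1.

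**Figure D2:**
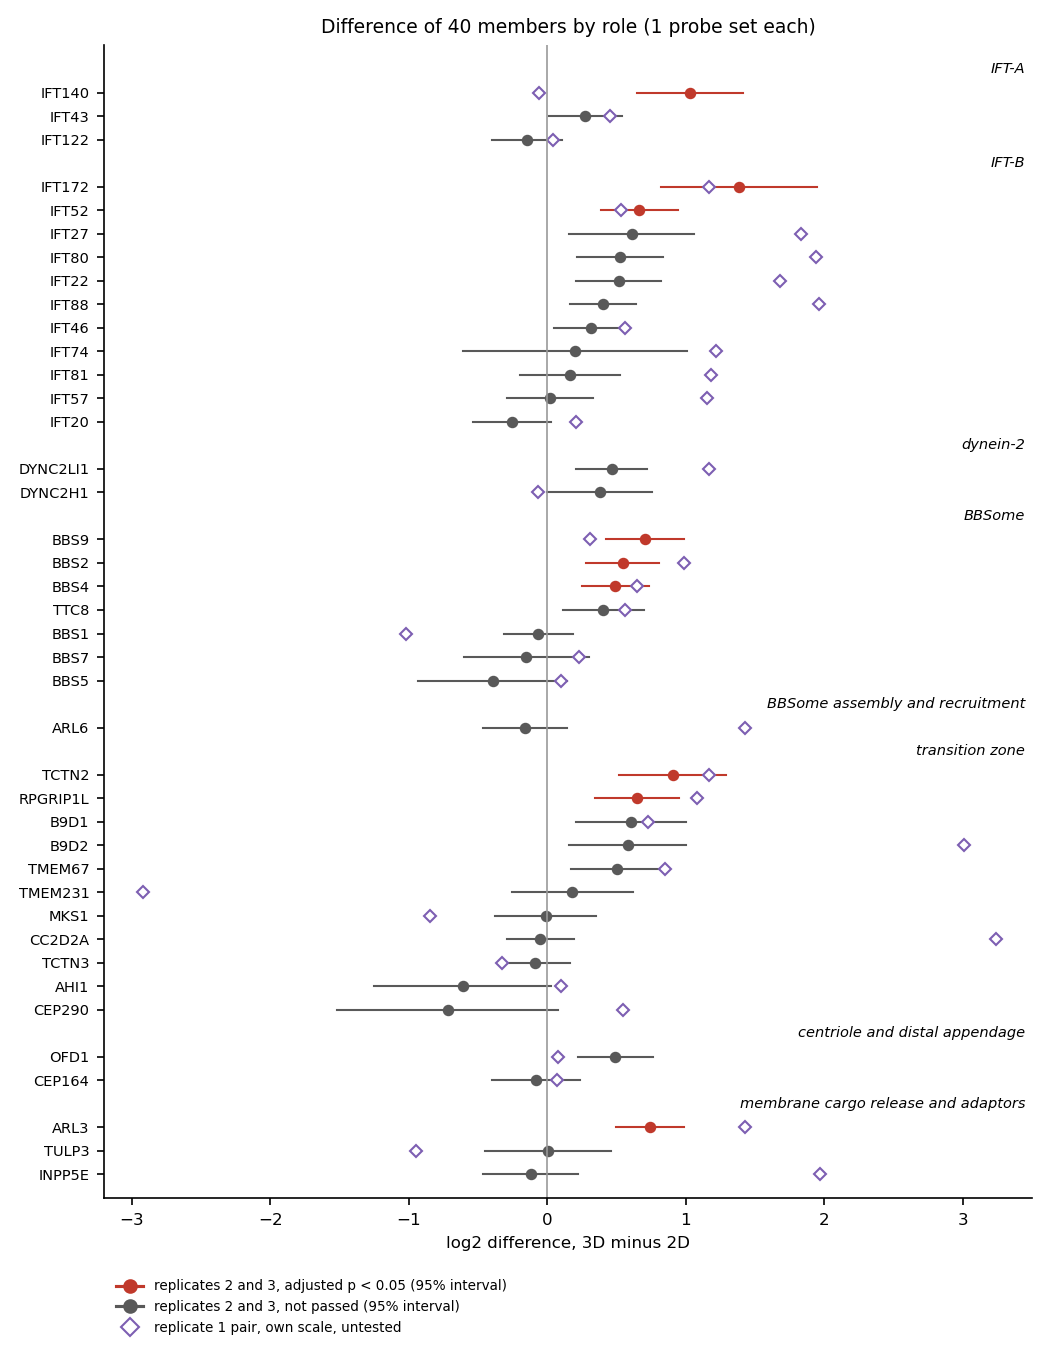
Log2 difference, 3D minus 2D (horizontal axis), of the 40 measured members grouped by role, each on 1 probe set; circles with 95% intervals are replicates 2 and 3, in red where the limma adjusted p was under 0.05, and open diamonds are the untested replicate 1 pair. The 9 red circles lie between 0.49 and 1.39, and the lowest circle is CEP290 at -0.72.

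The transition zone held members on both sides of 0. It is the gate between the basal body and the cilium, built by membrane proteins and soluble scaffolds. Of 11 measured members 2 rose (18.2%, against 4.17% of all named genes) and 9 did not pass. TCTN2, a tectonic, had 9.90 and 9.48 in 3D and 8.72 and 8.85 in 2D. The groups were apart by 0.91 (SE 0.159, limma adjusted p = 0.0317), while its second probe set, at 5.72 and 5.90 in 3D and 5.83 and 5.72 in 2D, was at 0.04. RPGRIP1L, a scaffold of the gate, had 7.30 and 7.34 in 3D and 6.81 and 6.54 in 2D, a rise of 0.65 (SE 0.124, limma adjusted p = 0.0392). Both had the same sign in replicate 1, at 1.17 and 1.08. B9D1 (0.61), B9D2 (0.58) and TMEM67 (0.51), 2 B9-domain proteins and the membrane protein meckelin, had intervals above 0 without passing. B9D1 gave 0.60 to 0.63 on its 3 probe sets, all without passing.

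CEP290 and AHI1 lay on the other side of 0. AHI1, known as jouberin, had 7.44 and 8.23 in 3D and 8.60 and 8.29 in 2D on the probe set that stands for it. The 3D pair was spread widely, and the difference of -0.61 did not pass (limma adjusted p = 0.233). It was -0.22 without 3D replicate 2 and -1.01 without 3D replicate 3. Of its other 3 probe sets, 2 did fall. The first had 6.21 and 6.28 in 3D and 7.14 and 7.30 in 2D, a difference of -0.98 (SE 0.109, limma adjusted p = 0.0121). The second had 6.13 and 6.29 in 3D and 7.02 and 6.75 in 2D, a difference of -0.68 (limma adjusted p = 0.0408). As the mean of its 4 probe sets AHI1 was lower as well (-0.60, limma adjusted p = 0.0382). Replicate 1 ran the other way on all 4 AHI1 probe sets, with 3D values higher by 0.10 to 1.20. CEP290, the large protein that ties the gate's membrane to its microtubules, had 6.13 and 7.17 in 3D and 7.52 and 7.22 in 2D. Its difference of -0.72 (SE 0.325, limma adjusted p = 0.255) was -0.20 without 3D replicate 2 and -1.24 without 3D replicate 3. A second CEP290 probe set, at 6.28 and 6.23 in 3D and 7.24 and 6.78 in 2D, lay just outside the threshold at -0.76 (limma adjusted p = 0.0522). In replicate 1 these probe sets differed by 0.55 and -1.10.

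The remaining transition zone members did not pass and had intervals across 0: TMEM231 at 0.18, MKS1 at -0.01, CC2D2A at -0.05 and TCTN3 at -0.09. CC2D2A lay below the lower quartile on all 4 arrays, the only member to do so, and its replicate 1 difference of 3.24 came from 3.5 in 3D and 0.26 in 2D. TMEM231 gave -2.92 in replicate 1, from 2.96 in 3D and 5.88 in 2D. In both genes 1 of the replicate 1 values lay below its array's lower quartile, which was 3.38 in 3D and 3.52 in 2D.

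Outside these complexes stands ARL3, the GTPase that frees lipid-anchored cargo inside the cilium. On the probe sets that stand for the genes it had the lowest adjusted p of the 40 members. Over all member probe sets, 1 of AHI1 that fell had a lower one (limma adjusted p = 0.0121). ARL3 had 11.89 and 11.98 in 3D and 11.18 and 11.21 in 2D. The replicates were close together, and the rise was 0.74 (SE 0.10, limma adjusted p = 0.0172), with 1.43 in replicate 1. Its second probe set was at 0.21 and did not pass. INPP5E, a phosphoinositide phosphatase that reaches the cilium as ARL3 cargo, overlapped between the groups, with 6.96 and 7.24 in 3D and 7.11 and 7.33 in 2D (-0.12, limma adjusted p = 0.687). TULP3, which couples membrane receptors to IFT-A, was at 0.01. OFD1, a protein of centrioles and their satellites, had 8.87 and 8.93 in 3D and 8.32 and 8.5 in 2D, apart by 0.49 with a limma adjusted p = 0.0577. CEP164, a distal appendage protein that docks the basal body, had 7.24 and 7.54 in 3D and 7.49 and 7.45 in 2D, overlapping at -0.08 (limma adjusted p = 0.786). Its second probe set was at -0.27 (interval -0.52 to -0.01) and did not pass.

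Where a member had several probe sets, most gave the same direction. Among 26 such members, all probe sets lay above 0 for 16, all below 0 for 4 (BBS5, AHI1, CEP290 and CEP164), and on both sides for 6. The size was less stable: within TCTN2 the probe sets ran between 0.04 and 0.91, and within ARL3 between 0.21 and 0.74. Only IFT172 had every probe set past the threshold among the members with more than 1.

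**Figure D3:**
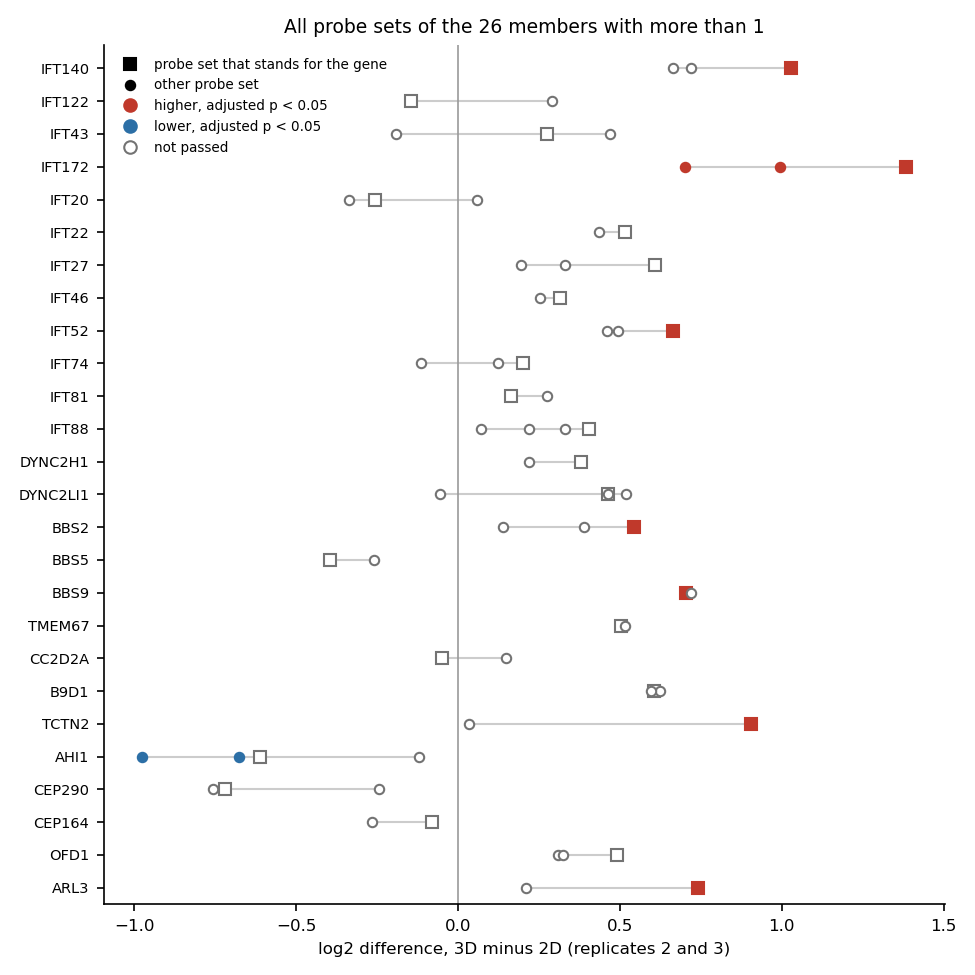
Log2 difference, 3D minus 2D, in replicates 2 and 3 (horizontal axis) for every probe set of the 26 members with more than 1; squares stand for the gene, circles are its other probe sets, filled red or blue where the limma adjusted p was under 0.05. The 3 IFT172 probe sets are red between 0.70 and 1.39, and 2 of the 4 AHI1 probe sets are blue.

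To set replicate 1 beside the other arrays, each probe set was also placed as a percentile among all 42924 probe sets of its own array. For 17 of 40 members (42.5%) the 3 percentiles in 3D lay above all 3 in 2D, and for 0 they lay below. Among all named genes these shares were 7.93% and 7.43%. The 17 included 7 of the 9 members that rose, the exceptions being IFT140 and BBS4. IFT172 stood at percentiles 79.6, 81.5 and 74.2 in 3D replicates 1 to 3 and 64.6, 60.1 and 62.0 in 2D. RPGRIP1L stood at 55.9, 54.0 and 54.7 in 3D and 37.0, 45.4 and 40.5 in 2D. IFT140 overlapped through replicate 1 alone, with 77.6, 79.5 and 75.2 in 3D and 77.1, 65.3 and 65.3 in 2D. The other 10 of the 17 were IFT27, B9D1, B9D2, IFT80, IFT22, TMEM67, DYNC2LI1, IFT88, TTC8 and IFT43, none of which passed the test on replicates 2 and 3. In replicate 1 alone, 33 of 40 members (82.5%) were higher in 3D, against 44.6% of all named genes, with a median difference of 0.61 against -0.11. Of the 13 members below 0 in replicates 2 and 3, 10 were above 0 in replicate 1.

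**Figure D4:**
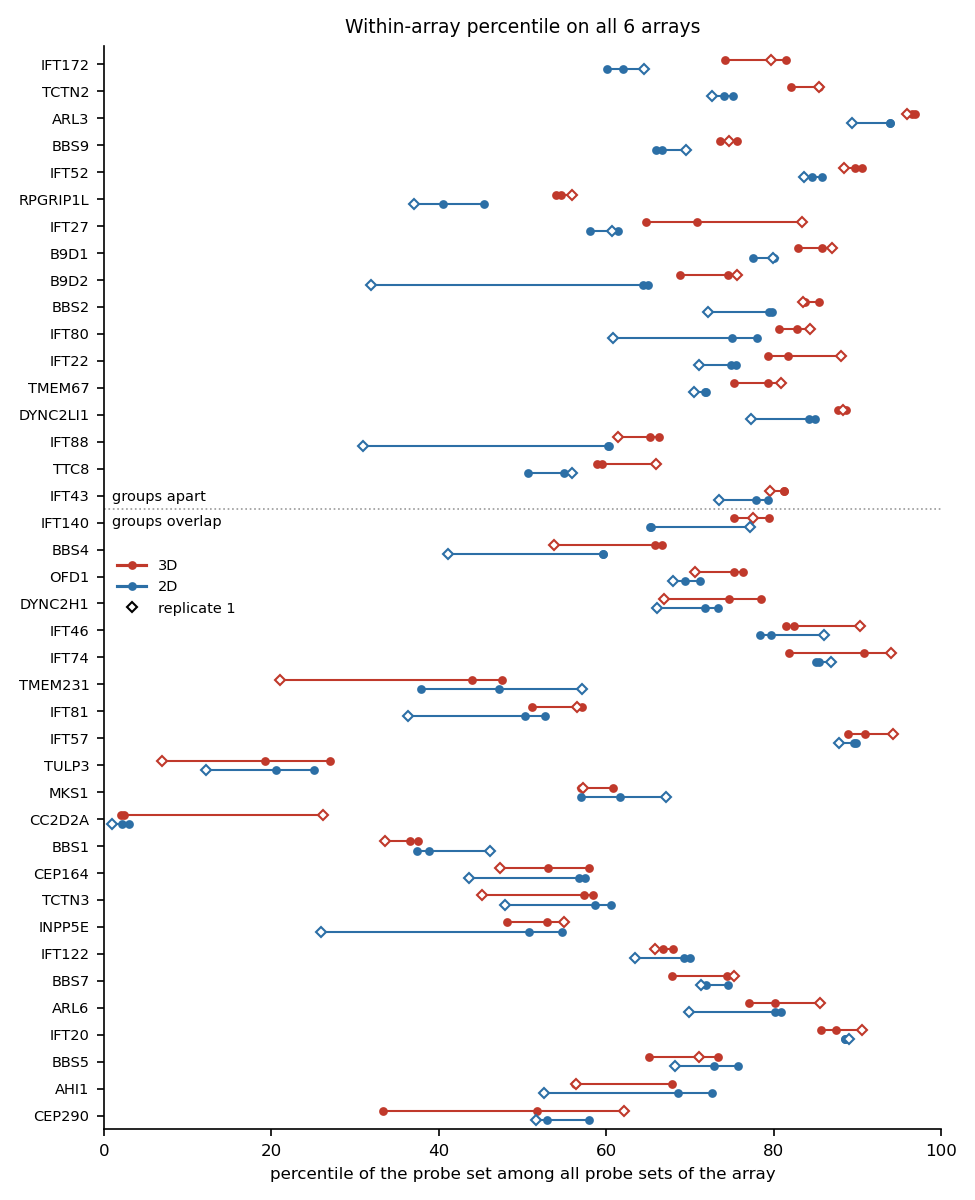
Percentile of each member's probe set among all probe sets of the same array (horizontal axis), with 3D in red above 2D in blue; lines span the 3 arrays and open diamonds mark replicate 1. For the 17 members above the dotted line the red and blue spans do not meet, with red to the right in each.

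Other genes of the cilium were examined by role. The counts below stand beside 4.17% of all named genes that rose and 3.12% that fell. Of 14 measured further IFT, motor and BBSome genes 4 rose and 0 fell, with a median difference of 0.35. LZTFL1, a regulator of BBSome entry, had 9.0 and 8.71 in 3D and 7.53 and 7.70 in 2D, a rise of 1.24 (SE 0.136, limma adjusted p = 0.0117). DYNLT2B, a dynein-2 light chain, rose by 0.92, the IFT-A gene WDR19 by 0.80 and the IFT-B gene CLUAP1 by 0.78. Of 14 further transition zone and inversin genes 3 rose and 0 fell: TMEM237 (0.87), INVS (0.83) and TMEM218 (0.69), with replicate 1 differences of 0.14, 0.00 and 0.30. Of 20 appendage and ciliogenesis genes 3 rose, FUZ (1.02), UNC119B (0.92, but -0.20 in replicate 1) and PCM1 (0.60), and 1 fell, the distal appendage gene CEP89 (-0.82, with -0.86 in replicate 1). Over these 20 genes the median difference was -0.03, with 9 above 0 and 11 below. At an unadjusted p under 0.05, 5 were higher and 3 lower, the lower ones being CEP89, CEP83 (-0.885) and SCLT1 (-0.585). CEP83 and SCLT1 did not pass, and both were higher in 3D in replicate 1 (0.42 and 1.8). FUZ encodes a planar polarity effector that helps to place IFT-A.

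Genes for signalling at the ciliary membrane and for Hedgehog signalling mostly did not pass. Of 16 measured, EVC2 rose (0.52, limma adjusted p = 0.0451) and 15 did not pass, with a median of 0.02. This 1 rise is 6.25% of the list, against 4.17% of all named genes. RFX3, a transcription factor that binds the promoters of many ciliary genes, had 7.91 and 7.62 in 3D and 7.13 and 7.19 in 2D. It rose by 0.61 (SE 0.129, limma adjusted p = 0.0493), with 1.66 in replicate 1. For the mean of its 2 probe sets the rise was 0.36 and did not pass (limma adjusted p = 0.101). The calls of CLUAP1, TMEM218 and PCM1 did not hold for their mean probe set values either, with an adjusted p = 0.0653, an adjusted p = 0.0788 and an adjusted p = 0.10. The other 6 RFX and FOXJ1 genes did not pass, and 6 of the 7 had lower values in 3D in replicate 1. None of 9 genes for cilium disassembly passed, with 1 at an unadjusted p under 0.05, HDAC6 at 0.78. None of 14 motile cilium genes passed, again with 1 at an unadjusted p under 0.05. None of 16 genes of dividing cells passed either, with 0 higher and 4 lower at an unadjusted p under 0.05 and a median of -0.17 (replicate 1 median 0.09). Among all named genes 12.5% were higher and 12.6% lower at that p.

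**Figure D5:**
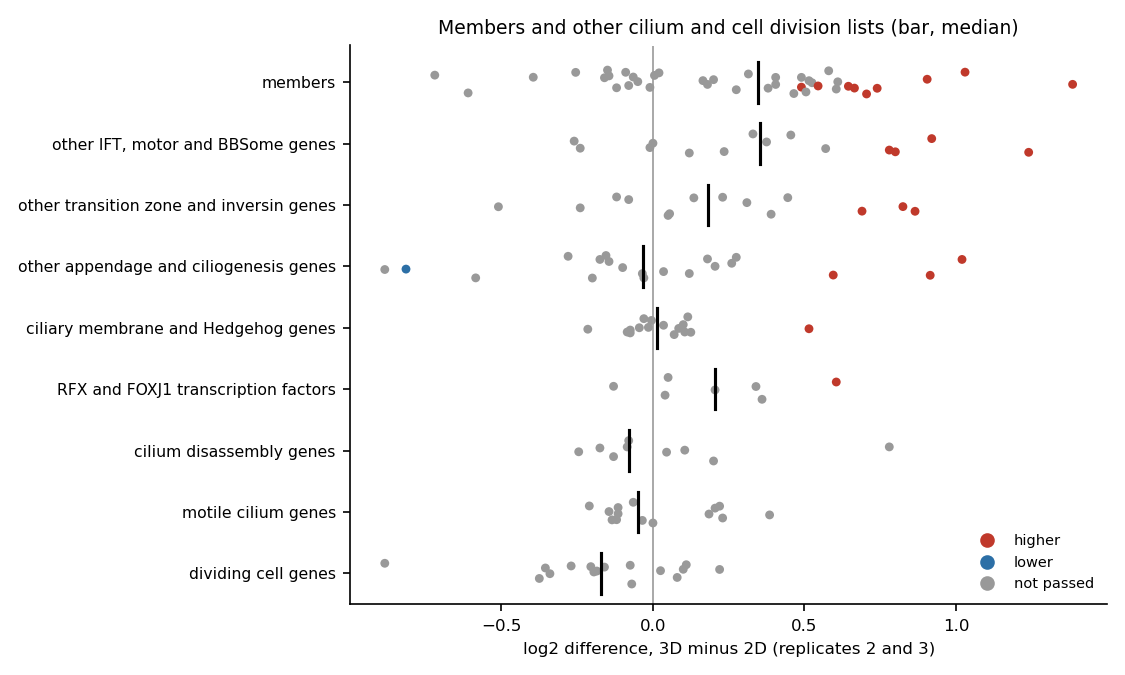
Log2 difference, 3D minus 2D, in replicates 2 and 3 (horizontal axis) for each measured gene of the members and of 8 other lists; red and blue points had a limma adjusted p under 0.05 and bars are medians. The medians are 0.35 for the members and for the other IFT, motor and BBSome genes, and -0.17 for the genes of dividing cells.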

How the data were processed

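Values are log2 signals of probe sets as deposited by the authors, who name RMA and limma in the submitters' processing notes without a version in the sources used here. How the replicate 1 columns came to lie on another scale is not given either. Of 43035 rows, 111 array controls were left out. The platform annotation gave 1 symbol for 29254 probe sets and several for 439, which were not named. The Entrez identifiers of 37 of the 40 measured members were found in the canine gene table of UU_Cfam_GSD_1.0, used for names only.

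Differences, 3D minus 2D, were fitted over all 42924 probe sets on replicates 2 and 3 with limma (version 3.58.1, in R version 4.3.3: lmFit, then eBayes). The tests were two-sided and adjusted by Benjamini-Hochberg, without a filter on level. SE and 95% intervals are limma's. Among several probe sets, the one with the highest 4-array mean stood for the gene. The table carries no detection calls, and the number of arrays limits the precision. Named members were those with a probe set past the threshold, the 2 lowest adjusted p per role and the 3 lowest differences; every other member is given by value, and up to 4 passing genes per other list were named. The members, lists and tests were chosen with earlier results of these data known. The fit was tested on simulated data. Joins and plots were made with pandas 2.3.3, matplotlib 3.10.9 and numpy 2.4.6 under Python 3.11.15.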

Additional observations from a re-analysis of the deposited data

How the results depend on the processing

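On replicates 2 and 3 the 9 members that rose kept their direction under every alternative run. With 1 array left out this was fixed beforehand, because their 3D and 2D values did not overlap. The replicate block, the other priors and the removal of dim probe sets leave the differences themselves unchanged. All 9 calls held with median centring and without dim probe sets, 7 of 9 under trend and robust priors, and 8 of 9 when probe sets were averaged per gene, where 1 member, AHI1, was lower. With all 6 arrays and no block, with all 6 arrays and the replicate block, with all 6 quantile normalized and the replicate block, and with replicates 2 and 3 and the replicate block, 0 member probe sets, 0 members and 0 of all probe sets passed in either direction. At an unadjusted p under 0.05 the members higher in 3D under these 4 fits were 0, 13, 15 and 18, and 0 were lower. Among all 42924 probe sets the counts under that p were 105, 2723, 3517 and 8325, both directions together. Leaving out 1 of the 4 arrays leaves 1 culture with a single array, assumed to vary like the other, and no member call was kept there. The members' median, 0.35, was 0.52 with all 6 arrays (with or without the replicate block), 0.51 quantile normalized with the replicate block, 0.27 with probe sets averaged per gene, and 0.29 to 0.41 with 1 array left out. The cause of these changes between fits was not tested. The labels do not say whether a replicate number marks a shared batch, and this was not tested. For replicates 2 and 3 the deviations of same-numbered arrays correlated at 0.0013 over all probe sets. The replicate 1 arrays correlated at 0.888 with each other and at 0.861 to 0.872 with the other arrays. Over the members the differences ran from -2.92 to 3.24 in replicate 1 and from -0.72 to 1.39 in replicates 2 and 3. Choosing each gene's probe set by its mean over all 6 arrays, an alternative added after seeing the data, as were the percentiles, changed 2 members' probe sets and 0 of the 9 calls.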

Other observations

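The 2 3D arrays of the tested replicates differed from each other more than the 2D arrays did. The median gap between 3D replicates 2 and 3 was 0.25 over the 40 members, against 0.13 between 2D replicates 2 and 3, and over all named genes it was 0.15 in 3D and 0.10 in 2D. A gap above 0.5 was seen between the 3D arrays for 6 members and between the 2D arrays for 0. Of these 6, IFT172 was higher in 3D replicate 2 (9.47, against 8.75 in 3D replicate 3), while IFT74, CEP290, AHI1, BBS5 and BBS7 were lower there. IFT74 lay at 9.51 in 3D replicate 2 and 10.61 in 3D replicate 3, with 9.87 and 9.85 in 2D. Of the 9 members that rose, 6 were higher in 3D replicate 2 than in 3D replicate 3. In replicate 1, a pair of B9D1 probe sets carry the same values, 7.97 in 3D and 7.54 in 2D, although they differ on the other arrays.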
